A study of Arabidopsis thaliana with 3 samples.

Results

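The genes described here are the DNA methylation and gene silencing factors of *Arabidopsis thaliana*, a set of 52 loci chosen by their AGI (Arabidopsis Genome Initiative) numbers from what their products are known to do. They are 52 of the 33559 loci listed in the deposited table, of which 26416 had a value above 0 in at least 1 library. The set holds 5 DNA methyltransferases, 5 chromatin remodelling and hemimethylated DNA binding factors, 7 factors of RNA polymerase IV and siRNA production, 11 effectors of RNA polymerase V, 3 Argonautes of the AGO4 clade, 7 histone modifying factors, 2 MORC ATPases, 10 factors of post-transcriptional silencing and 2 replication-linked factors. Poly(A) RNA of whole seedlings was sequenced in 3 libraries, 1 for each genotype, so no difference between genotypes could be set against a spread between replicates, and no test was made. The wild type was the ecotype Col, in which the mutants also lie according to the labels. The *mms19-1* mutant is a T-DNA line without the cytosolic iron-sulfur cluster assembly factor MMS19. The *abo4* mutant carries a weak missense allele of the catalytic subunit of DNA polymerase ε, since plants without ABO4 do not survive as embryos, and both mutants are thus 1 allele each. The study's text names *mms19-2* in 1 sentence on this experiment, whereas its methods and the labels name *mms19-1*. All seedlings were 14 days old and were raised on MS agar at 22°C with 16 h of light and 8 h of dark. The comparison of each mutant with Col asks whether the transcripts of the silencing machinery differ in seedlings that lack MMS19 or have a weakened DNA polymerase ε.

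Cytosine methylation in plants is copied after replication by MET1 at CG sites, with VIM proteins that bind hemimethylated DNA, and by CMT3 at CHG sites, in a loop with the histone methyltransferase SUVH4. RNA-directed DNA methylation (RdDM) sets methylation anew: RNA polymerase IV and RDR2 make precursors that DCL3 cuts into siRNAs, and AGO4 loaded with these meets transcripts of RNA polymerase V and brings in the methyltransferase DRM2. Post-transcriptional silencing uses related Dicer, Argonaute and RNA-dependent RNA polymerase proteins to cut messenger RNAs and viral RNAs.

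*MMS19* itself was at 10.1 FPKM in Col, 0.228 FPKM in *mms19-1* and 9.01 FPKM in *abo4*, where FPKM are fragments per kilobase of transcript, scaled to the mapped reads of the library. *ABO4* was at 5.03, 6.95 and 8.09 FPKM in the same order, which does not test the *abo4* label because a missense allele still makes a transcript. The FPKM of short genes fell on steps of whole reads, which put the depth of *mms19-1* at 0.916 and that of *abo4* at 0.887 times the depth of Col (about 56120000 reads in Col, 51400000 in *mms19-1* and 49760000 in *abo4*). From these steps and the transcript lengths, the members were covered by an estimated 0 to 12675 reads in Col, 12 to 11241 in *mms19-1* and 17 to 12526 in *abo4*, with medians of 1192, 1052 and 1072. Under 50 reads stood behind 3 members in Col, 4 in *mms19-1* and 2 in *abo4*. Leaf and root marker genes lay within 1.5-fold of Col in both mutants (3 of 3 in each list). So did 18773 of the 19771 loci with a mean of at least 1 FPKM in *mms19-1* and 17629 in *abo4*. All 279 loci of the organelle genomes were listed at 0, so a member with an exact 0 is described only as listed at 0.

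Most silencing factors lay within 1.5-fold of Col, as did most loci. In *mms19-1*, these were 48 of the 52 members and 23835 of the 26416 loci above 0. In *abo4*, they were 40 of the 52 members and 22190 of the loci. Ratios were taken on the scale log2(FPKM + 0.1), which understates the change of low genes. In *mms19-1*, 1 of the 52 members was more than 2-fold higher than in Col (*DRM1*), beside 2.38% of the 26416 loci above 0. There, 2 members were more than 2-fold lower (*FDM2* and *AGO9*), beside 1.64% of the loci. With a limit of 1.5-fold, 1 member was higher (5.28% of all loci) and 3 were lower, *SGS3* being added (4.49%). In *abo4*, 4 members were more than 2-fold higher (*DRM1*, *VIM1*, *VIM2* and *VIM3*), beside 3.87% of the loci, and 2 were more than 2-fold lower (*SPT5L* and *FDM2*), beside 2.58%. At 1.5-fold, 7 were higher in *abo4*, with *MET1*, *CMT3* and *TSK* added (9.14% of all loci), and 5 were lower, with *SGS3*, *AGO9* and *AGO3* added (6.86%). In percent, 1.92% of the members were more than 2-fold higher and 3.85% more than 2-fold lower in *mms19-1*, and 7.69% and 3.85% in *abo4*, each share resting on 1 to 4 genes. Without the 5 members under a mean of 1 FPKM, 0 of 47 were more than 2-fold higher in *mms19-1* (1.03% of loci with such a mean) and 1 was more than 2-fold lower (0.804%), with 0 and 2 at 1.5-fold (2.51% and 2.54%). In *abo4*, 2 of these 47 were more than 2-fold higher (1.92%) and 2 more than 2-fold lower (1.90%), with 5 and 3 at 1.5-fold (5.27% and 5.56%). The 5 higher ones were *VIM1*, *VIM3*, *CMT3*, *MET1* and *TSK*.

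Small differences went mostly downwards in *mms19-1*, while in *abo4* the share of members below Col was nearer to that of all loci. In *mms19-1*, 39 of the 52 members (75.0%) were below Col by any amount, beside 51.0% of all loci. The median log2 ratio was -0.08 beside -0.01 over all loci above 0. Among the 47 members with a mean of at least 1 FPKM, 37 (78.7%) were below Col, beside 55.0% of such loci. In *abo4*, 30 of 52 (57.7%) were below Col, beside 47.6% of all loci, with a median of -0.09 beside 0.00. Of the 47 members, 28 (59.6%) were below Col there, beside 52.0% of such loci. Both mutants were set against the same Col library, so a high or low value in that library enters both ratios. The members' FPKM summed to 518 in Col, 472 in *mms19-1* and 522 in *abo4*.

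**Figure D1:**
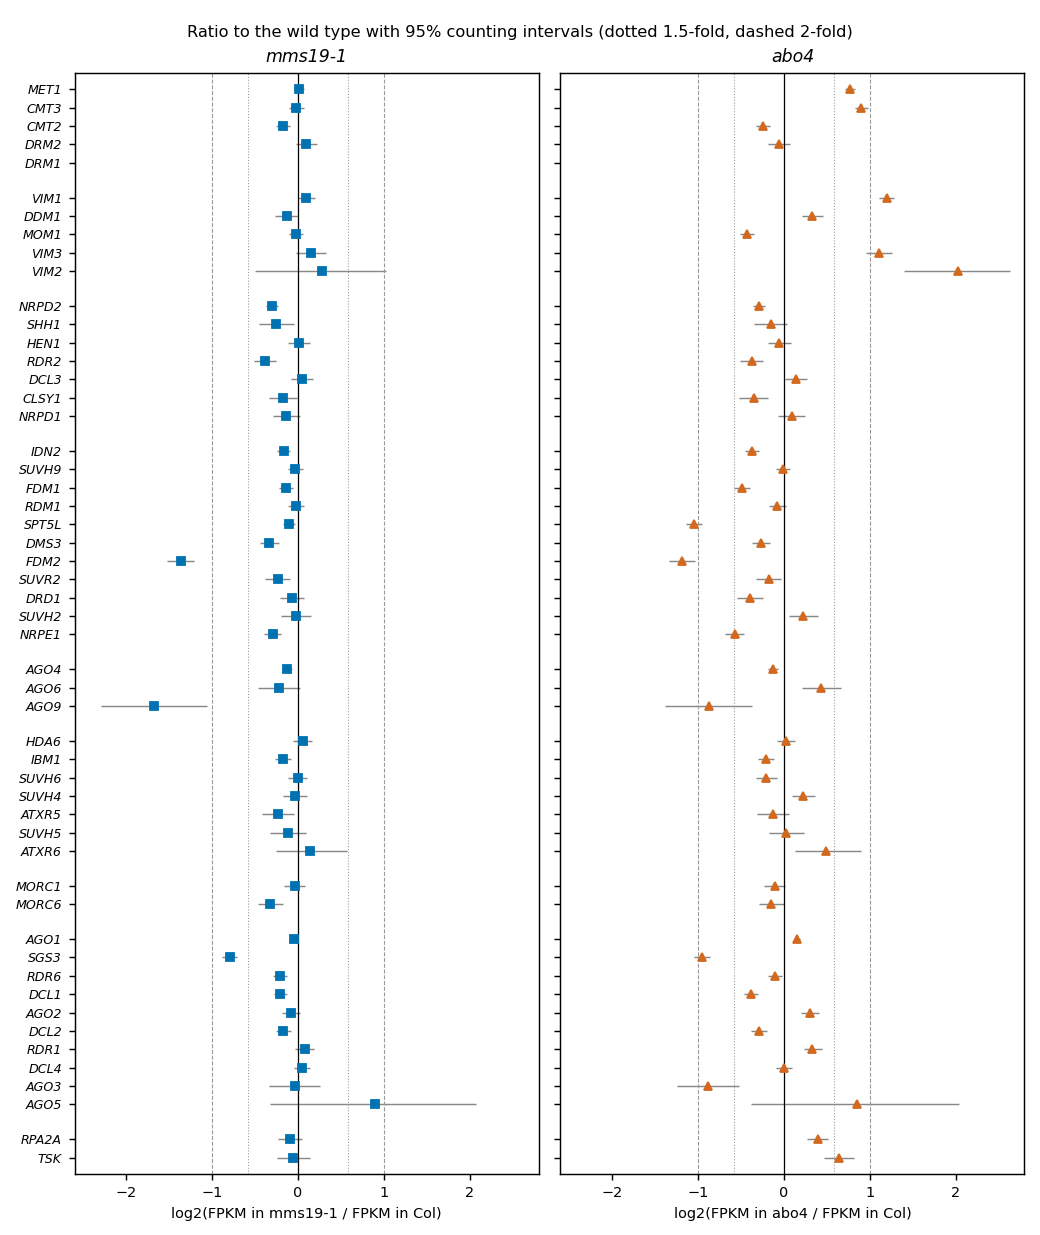
The log2 ratio of FPKM in *mms19-1* (left, squares) and *abo4* (right, triangles) to FPKM in Col is plotted for 51 members, grouped by role, with bars for the 95% exact counting intervals; *DRM1*, listed at 0 in Col, has no point. In *mms19-1*, *FDM2*, *SGS3* and *AGO9* lie below the 1.5-fold line, and in *abo4*, *MET1*, *CMT3*, the VIM genes and *TSK* lie above it and *SPT5L*, *FDM2*, *SGS3*, *AGO9* and *AGO3* below; *AGO5*, at 186% and 181% of Col without the 0.1 FPKM added, has intervals that hold 100%.

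The percentages of Col that follow carry 95% exact intervals from the estimated reads, which cover counting error only. By that measure alone, 24 of 51 members with a ratio had an interval that left out 100% in *mms19-1* (1 above and 23 below), and 39 of 51 in *abo4* (16 above and 23 below). The same count was not made over all loci, so nothing about the set is read from these numbers. The spread between plants has no measurement here. In whole seedlings, fewer cells of a type and less RNA per cell cannot be told apart.

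Of the 4 methyltransferases with a mean of at least 1 FPKM, *MET1* and *CMT3* were more than 1.5-fold higher in *abo4*, beside 5.27% of such loci. *MET1* (AT5G49160, chr5:19932114-19938470, plus strand), the CG maintenance methyltransferase, was at 15.8 FPKM in Col, 15.9 in *mms19-1* and 26.9 in *abo4*. That is 101% of Col in *mms19-1* (96.6 to 105%) and 170.0% in *abo4* (164 to 177%). *CMT3* (AT1G69770, chr1:26248118-26253687, minus strand), the CHG maintenance methyltransferase, was at 13.1, 13.0 and 24.6 FPKM, which is 98.6% of Col in *mms19-1* (92.7 to 105%) and 187% in *abo4* (177 to 197%). The *abo4* library was the high one for both enzymes, while *mms19-1* and Col were level within counting error.

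The other methyltransferases did not share this pattern. *CMT2*, which methylates CHH sites in heterochromatin without siRNAs, was at 12.6, 11.2 and 10.6 FPKM, or 88.9% of Col in *mms19-1* and 84.5% in *abo4*. *DRM2*, the methyltransferase of RdDM, was at 9.14, 9.82 and 8.77 FPKM, or 107% (98.7 to 117%) and 95.9% (87.8 to 105%). Its paralog *DRM1* was listed at 0 in Col, 0.128 FPKM in *mms19-1* and 0.289 FPKM in *abo4*. These values correspond to about 12 and 25 reads, so *DRM1* passed the 2-fold limit in both mutants on very few reads, and no fold is given against the 0 in Col.

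The VIM genes encode the E3 ligase-type proteins that recognise hemimethylated CG sites and are needed for MET1 to work. *VIM1* (AT1G57820, chr1:21413981-21418115) was at 13.2 FPKM in Col, 14.2 in *mms19-1* and 30.3 in *abo4*, or 107% of Col (100.2 to 115%) and 229% (216 to 244%). *VIM3* (AT5G39550, chr5:15837178-15840678) was at 4.64, 5.14 and 10.00 FPKM, or 111% (98.2 to 125%) and 216% (194 to 239.6%). *VIM2* (AT1G66050, chr1:24589343-24592780) was low throughout, at 0.261, 0.316 and 1.06 FPKM from about 30, 33 and 106 reads, or 121% (71.0 to 204%) and 406% (264 to 619%). For the 3 genes, *abo4* was the high library, and *mms19-1* lay within 1.5-fold of Col. How far each value belongs to its own gene depends on their sequences, of which the first 100 coding bases are shown, in the direction of transcription, with capitals at the bases that differ from *VIM1*. They come from the RefSeq annotation of TAIR10.1, whose nuclear chromosomes carry the TAIR10 sequence: *VIM1* at chr1:21417803-21417902 (minus strand), *VIM2* at chr1:24589534-24589633 (plus), *VIM3* at chr5:15840404-15840503 (minus) and *VIM4*, a paralog outside the set, at chr1:24586582-24586681 (minus).
VIM1: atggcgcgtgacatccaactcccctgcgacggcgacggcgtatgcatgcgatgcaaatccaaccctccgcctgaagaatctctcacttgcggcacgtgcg
VIM2: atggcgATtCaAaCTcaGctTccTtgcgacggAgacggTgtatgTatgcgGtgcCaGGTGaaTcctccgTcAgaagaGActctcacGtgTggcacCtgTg
VIM3: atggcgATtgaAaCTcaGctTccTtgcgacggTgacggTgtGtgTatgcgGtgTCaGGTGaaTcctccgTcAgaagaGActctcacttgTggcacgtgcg
VIM4: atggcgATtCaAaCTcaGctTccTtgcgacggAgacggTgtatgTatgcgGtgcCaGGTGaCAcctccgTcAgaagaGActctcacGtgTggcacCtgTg
In this stretch *VIM2* differed from *VIM1* at 27 bases, *VIM3* at 25 and *VIM4* at 28. Over the aligned coding sequence *VIM1* was 75.1% identical to *VIM2* and 75.9% to *VIM3*, and no 45-base stretch of its longest transcript, 45 bases being the read length, was repeated elsewhere in the genome. Of its aligned 45-base windows, at most 3.63% (against *VIM3*) differed from a VIM gene shown here at 2 or fewer bases, the number of mismatches that the aligner was set to allow. *VIM2* was 99.5% identical to *VIM4*, its neighbour on chromosome 1, and 69.6% of its 45-base stretches were repeated in the genome, so *VIM2* and *VIM4* (0.0107, 0.117 and 0.109 FPKM) cannot be told apart well. *VIM3* had 18.1% of its 45-base stretches repeated in the genome, but 68.1% of its aligned windows were within 2 bases of *VIM2* and 69.8% within 2 bases of *VIM4*, so its value is uncertain too.

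Of the other factors that act with methylation, *DDM1*, the remodeller that opens heterochromatin to methyltransferases, was at 7.30, 6.66 and 9.21 FPKM, or 91.3% of Col in *mms19-1* (83.3 to 99.9%) and 126% in *abo4* (116 to 137%). *MOM1*, which keeps heterochromatic genes silent without changing most methylation, was at 8.34, 8.20 and 6.20 FPKM, or 98.4% (93.3 to 104%) and 74.4% (70.2 to 78.8%). *DDM1* and *MOM1* thus moved apart in *abo4*, and neither passed 1.5-fold. The median log2 ratio of the 5 remodelling and VIM genes was 0.10 in *mms19-1* and 1.09 in *abo4*, beside -0.01 and 0.00 over all loci above 0. The *abo4* median is the value of *VIM3*, which is uncertain, and *DDM1* and *MOM1* were at 0.33 and -0.42 there.

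The 2 replication-linked members, *TSK* and *RPA2A*, were also higher in *abo4*, where *TSK* passed 1.5-fold and *RPA2A* did not. *TSK* (TONSOKU), which acts at replication forks and in heterochromatin stability, was at 2.06, 1.99 and 3.21 FPKM, or 96.4% of Col in *mms19-1* (84.2 to 110.0%) and 156% in *abo4* (138 to 176%). *RPA2A*, a subunit of the single-strand binding complex that is needed for transcriptional silencing, was at 10.1, 9.52 and 13.3 FPKM, or 93.9% (85.4 to 103%) and 132% (121 to 143%). *RPA2A* overlaps a gene on the other strand over 597 bases, which was listed at 0. It also shares 173 bases with a gene on the same strand, whose mean level was 23.1 FPKM. The listed value does not separate strands as far as the sources used here say. *ATXR6*, a histone H3 monomethyltransferase that prevents extra replication of heterochromatin, was at 1.60, 1.76 and 2.26 FPKM, or 110.4% (83.9 to 148%) and 141% (109 to 187%). Its partner *ATXR5* was at 7.10, 6.05 and 6.51 FPKM, or 85.2% (75.0 to 96.8%) and 91.6% (80.6 to 104%). The ATXR pair therefore lay on different sides of Col in *abo4*, *ATXR6* above and *ATXR5* slightly below with an interval that held 100%.

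DNA replication genes were measured beside these factors, because MET1, VIM1 and ATXR6 are known as S-phase genes. All 12 replication markers (MCM, PCNA, ribonucleotide reductase and CDC genes) were above Col in *abo4*, *MCM6* with an interval that held 100% (98.5 to 119%). The MCM genes were above Col by small amounts, from 108% for *MCM6* to 119% for *MCM3*. Of the 19771 loci with a mean of at least 1 FPKM, 9480 were above Col there. The median log2 ratio of the 12 was 0.33, and 4 of 12 were more than 1.5-fold higher (*PCNA1*, *RNR1*, *TSO2* and *CDC45*), beside 5.27% of such loci. In *mms19-1*, 5 of 12 were above Col, beside 8884 of the 19771 loci, and the median was -0.10. The 12 markers summed to 181 FPKM in Col, 224 in *mms19-1* and 519 in *abo4*. *TSO2*, a ribonucleotide reductase subunit induced by DNA damage, made up 61.5, 107 and 345 FPKM of these sums. None of the 12 was listed at 0. The part of the replication genes in the higher values of *MET1*, *CMT3*, the VIM genes and *TSK* was not tested.

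**Figure D2:**
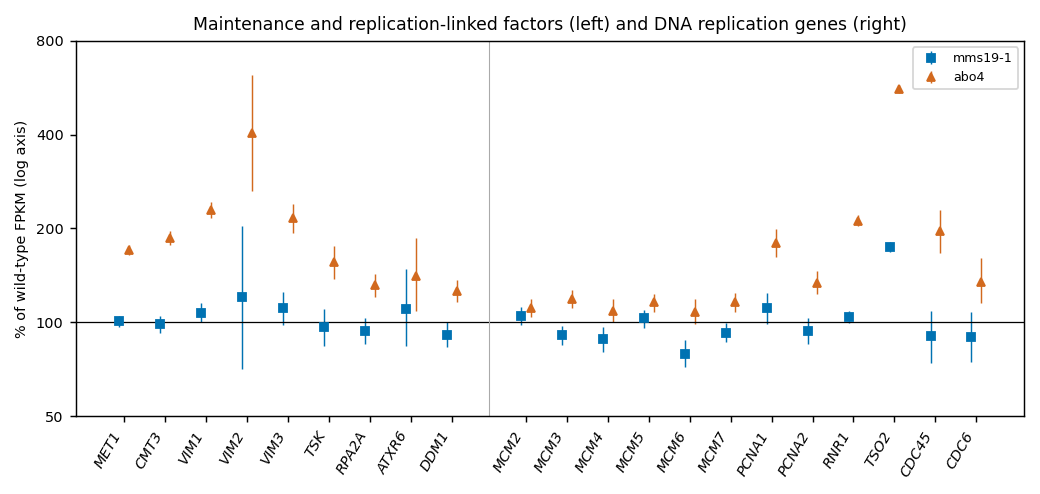
FPKM as a percentage of Col is plotted on a log axis for 9 members that were above Col in *abo4* and were picked for that (left) and the 12 DNA replication markers (right), with 95% exact counting intervals. On the left, the *abo4* triangles run from 126% for *DDM1* to 406% for *VIM2*, while related members not drawn were below Col in *abo4* (*CMT2* at 84.5%, *DRM2* at 95.9%, *MOM1* at 74.4% and *ATXR5* at 91.6%); the 12 markers are above 100%, *TSO2* highest.

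Sequence words near the gene starts were read as a description of the same genes. The binding word of E2F factors, which drive S-phase genes, was searched for as TTTCCCGC, TTTCGCGC, TTTGCCGC or TTTGGCGC on both strands, from 300 bases before to 200 after each gene start. It was found in 5 of 52 members (9.62%: *CMT3*, *NRPE1*, *AGO6*, *IBM1* and *ATXR6*), in 3.08% of 26693 protein-coding loci and in 7 of the 12 replication markers. The sites of *CMT3* and *ATXR6* lie close to the gene start and are shown with the word in capitals, in the direction of each gene.
CMT3, chr1:26253650-26253673 (minus strand): cccatcacTTTGGCGCttatgtga
ATXR6, chr5:8297113-8297136 (minus strand): taacagtgGCGCCAAAttaaaatt
The *CMT3* word begins 23 bases from the start and that of *ATXR6* 32 bases from it. *MET1*, the VIM genes and *TSK* held none of these words in this window, which says only that these letters were not found there. The word CTTNNNNNNNAAG of SOG1, the transcription factor of the plant DNA damage response, was found in 10 of 52 members (19.2%, *TSK* among them) and in 19.8% of all protein-coding loci. *NRPE1*, *AGO6* and *IBM1*, the remaining members with an E2F word, were at 67.2%, 135% and 86.5% of Col in *abo4*, so members with the word lay on both sides of Col.

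Genes for RNA polymerase IV and siRNA production stayed within 1.5-fold of Col in both mutants (7 of 7). Of the 19771 loci with a mean of at least 1 FPKM, 18773 did so in *mms19-1* and 17629 in *abo4*. *NRPD2*, the second largest subunit shared by RNA polymerases IV and V, had the highest level of this group, at 16.9 FPKM in Col, 13.7 in *mms19-1* and 13.9 in *abo4*, or 80.9% (77.0 to 85.0%) and 82.0% (78.1 to 86.2%). Of its 45-base stretches, 10.4% were repeated in the genome, which these intervals do not cover. *NRPD1*, the largest subunit of RNA polymerase IV, had the lowest, at 2.42, 2.20 and 2.58 FPKM, or 91.1% (81.5 to 102%) and 107% (95.7 to 119%). *RDR2*, which makes the complementary strand on polymerase IV transcripts, was at 5.82, 4.47 and 4.49 FPKM, or 76.8% (70.1 to 84.1%) and 77.1% (70.2 to 84.4%). It was the lowest of the group in *mms19-1* relative to Col. *DCL3*, the Dicer of RdDM, was at 3.73, 3.86 and 4.11 FPKM. *CLSY1* and *SHH1*, which recruit polymerase IV, were at 3.23, 2.86 and 2.54 FPKM and at 9.53, 8.00 and 8.58 FPKM. *HEN1*, which methylates small RNAs at their ends, was at 5.89, 5.94 and 5.67 FPKM. The group's median log2 ratio was -0.17 in *mms19-1* and -0.15 in *abo4*.

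The effectors of RNA polymerase V were below Col in 11 of 11 in *mms19-1* and 10 of 11 in *abo4*, mostly by small amounts (medians -0.14 and -0.37). All 11 had a mean of at least 1 FPKM. Of such loci, 55.0% were below Col in *mms19-1* and 52.0% in *abo4*. *SPT5L* (AT5G04290, chr5:1195969-1202936), an elongation factor that binds AGO4 on polymerase V transcripts, was at 13.0 FPKM in Col, 12.1 in *mms19-1* and 6.31 in *abo4*. It was at 92.9% of Col in *mms19-1* (88.3 to 97.6%) and 48.5% in *abo4* (45.5 to 51.5%), so the low library was *abo4* alone, with about 1447 reads behind the value. *NRPE1*, the largest subunit of RNA polymerase V, was at 5.51, 4.50 and 3.70 FPKM, or 81.7% (76.3 to 87.5%) and 67.2% (62.4 to 72.3%), just inside the 1.5-fold limit in *abo4*. *DRD1* and *DMS3*, which with *RDM1* form the complex that helps polymerase V onto chromatin, were at 5.53, 5.27 and 4.21 FPKM and at 7.66, 6.08 and 6.39 FPKM. *RDM1* was at 13.5, 13.4 and 12.9 FPKM, or 98.8% (92.6 to 105%) and 95.0% (89.0 to 102%). *DMS3* and *RDM1* share 2243 and 1899 bases with genes on the opposite strand, whose mean levels were 11.1 and 1.98 FPKM. *SUVH9* and *SUVH2*, which bind methylated DNA and tether polymerase V, were at 16.5, 16.1 and 16.4 FPKM and at 4.39, 4.31 and 5.15 FPKM. *SUVH9* was at 97.6% (92.0 to 104%) and 99.4% (93.6 to 105%) of Col, and *SUVH2*, the member of this group above Col in *abo4*, at 98.2% (86.9 to 111%) and 117% (104 to 132%). *SUVR2*, a related protein that acts with chromatin remodellers, was at 5.96, 5.06 and 5.27 FPKM.

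*FDM2* (AT4G00380, chr4:167497-171010) stood furthest below Col in both mutants among the 47 members whose mean reached 1 FPKM. It encodes a factor of DNA methylation that pairs with IDN2 and binds RNA duplexes in RdDM, together with its close copy FDM1. *FDM2* was at 10.3 FPKM in Col, 4.03 in *mms19-1* and 4.56 in *abo4*, from about 1226, 437 and 479 reads, or 38.9% of Col (34.8 to 43.4%) and 44.0% (39.6 to 49.0%). *FDM1* (AT1G15910, chr1:5465251-5469180) was at 18.4, 16.7 and 13.1 FPKM, or 90.8% (85.6 to 96.3%) and 71.4% (66.9 to 76.0%). The libraries of both mutants were low for *FDM2*, whereas *FDM1* was near Col in *mms19-1*. The pair is nearly identical, so a stretch of 100 coding bases is shown for each, with capitals at the 5 bases that differ, on the plus strand at chr1:5466041-5466140 for *FDM1* and chr4:168052-168151 for *FDM2*.
FDM1: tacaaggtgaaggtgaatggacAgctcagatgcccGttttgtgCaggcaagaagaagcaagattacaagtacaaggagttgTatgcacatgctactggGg
FDM2: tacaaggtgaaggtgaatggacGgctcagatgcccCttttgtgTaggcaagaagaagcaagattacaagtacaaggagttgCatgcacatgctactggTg
Over the aligned coding sequence the pair was 96.0% identical (1828 of 1905 bases). Of the 45-base windows, 20.4% were identical in both genes and 72.9% differed at 2 or fewer bases. In the longest transcripts, 296 of the 1964 45-base stretches of *FDM2* (15.1%) and 308 of the 2285 of *FDM1* (13.5%) were repeated in the genome. Both values are therefore uncertain by the reads that could belong to either gene, and how such reads were counted is not given in the sources used here. *IDN2*, their partner, had the highest level of the polymerase V group, at 24.9, 22.2 and 19.3 FPKM, or 89.1% (84.6 to 93.9%) and 77.4% (73.2 to 81.7%). Of the 45-base stretches of *IDN2*, 5.89% were repeated in the genome.

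FDM1, FDM2 and IDN2 share the XS domain, an RNA duplex binding domain, with SGS3 and with FDM3, FDM4 and FDM5, which lie outside the set. This family was put together after its values were seen. *SGS3* (AT5G23570, chr5:7942908-7946147), the partner of RDR6 in post-transcriptional silencing, was at 21.0 FPKM in Col, 12.1 in *mms19-1* and 10.9 in *abo4*, or 57.6% (54.3 to 61.1%) and 51.7% (48.6 to 55.0%). *FDM4* was at 6.31, 3.86 and 3.61 FPKM, or 61.2% (55.0 to 68.0%) and 57.2% (51.2 to 63.7%). *FDM5* was at 44.7, 40.5 and 29.4 FPKM, or 90.6% (87.2 to 94.0%) and 65.7% (63.1 to 68.5%), and *FDM3* at 7.80, 7.51 and 5.40 FPKM. The 7 genes were below Col in both mutants, with median log2 ratios of -0.17 in *mms19-1* and -0.60 in *abo4*. Of loci with a mean of at least 1 FPKM, as all 7 had, 55.0% were below Col in *mms19-1* and 52.0% in *abo4*. More than 1.5-fold lower were 3 of 7 in *mms19-1* (*FDM2*, *SGS3* and *FDM4*, beside 2.54% of such loci) and 4 of 7 in *abo4* (with *FDM5* added, beside 5.56%). As the genes were grouped for being low, nothing is read from these shares. Because the Col library is shared, the 7 genes being low in both mutants is a single comparison with 1 Col value for each gene.

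**Figure D3:**
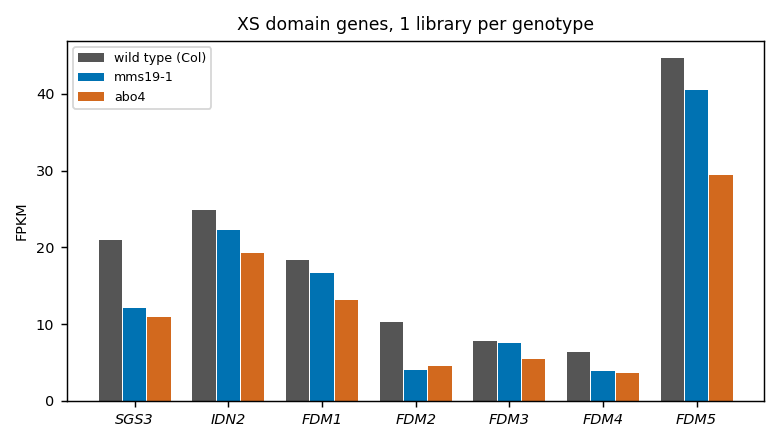
FPKM of the 7 XS domain genes is shown as bars for Col, *mms19-1* and *abo4*, with 1 library per genotype and no error bars. For each gene the Col bar is the tallest, and the *mms19-1* and *abo4* bars of *SGS3*, *FDM2* and *FDM4* are close to each other.

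The Argonautes of the AGO4 clade, which carry the siRNAs of RdDM, differed widely in level. *AGO4*, the main one, was at 35.6 FPKM in Col, 32.7 in *mms19-1* and 32.6 in *abo4*, or 91.7% (88.3 to 95.2%) and 91.6% (88.2 to 95.1%). *AGO6*, known from meristems, was at 1.84, 1.58 and 2.49 FPKM, or 86.0% (72.2 to 102%) and 135% (116 to 158%). *AGO9* (AT5G21150, chr5:7192239-7198381), known from ovules, was at 0.640, 0.201 and 0.350 FPKM from about 103, 30 and 50 reads. It was at 31.3% of Col in *mms19-1* (20.4 to 48.2%) and 54.8% in *abo4* (38.2 to 77.5%). *AGO9* was thus the member furthest below Col in *mms19-1* as a percentage, at a level where about 30 reads set the value. Over the same libraries, 7 of 7 floral organ identity genes were more than 2-fold higher than Col in both mutants. Of all loci above 0, 2.38% passed that limit in *mms19-1* and 3.87% in *abo4*. The 7 floral genes summed to 3.22 FPKM in Col, 16.4 in *mms19-1* and 23.9 in *abo4* (none at 0), and *AGO9* was lower in the libraries in which they were higher. Their part in these or the other values given here was not tested.

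Histone modifying factors stayed within 1.5-fold of Col in both mutants (7 of 7), with medians of -0.03 and 0.02. So did 18773 of the 19771 loci with a mean of at least 1 FPKM in *mms19-1* and 17629 in *abo4*. *HDA6*, the histone deacetylase of heterochromatin, was at 15.5, 16.1 and 15.8 FPKM, or 104% (96.1 to 112%) and 102% (94.3 to 109.7%). *SUVH4* (KRYPTONITE), whose histone mark CMT3 reads, was at 6.78, 6.62 and 7.97 FPKM, or 97.6% (88.5 to 108%) and 117% (107 to 129%). *SUVH5* and *SUVH6*, which act alongside it, were at 2.32, 2.14 and 2.37 FPKM and at 9.43, 9.42 and 8.20 FPKM. *IBM1*, the demethylase that removes this histone mark from gene bodies, was at 10.6, 9.35 and 9.15 FPKM, or 88.4% (82.8 to 94.4%) and 86.5% (80.9 to 92.5%). In *abo4*, *CMT3* was therefore 187% of Col while its partner *SUVH4* was 117%. The MORC ATPases, which compact silenced chromatin, were near Col as well. *MORC1* was at 9.54, 9.28 and 8.85 FPKM, or 97.3% (89.3 to 106%) and 92.8% (85.0 to 101%), and *MORC6* at 6.69, 5.34 and 6.06 FPKM, or 79.9% (72.2 to 88.3%) and 90.5% (82.0 to 99.8%).

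In post-transcriptional silencing, *SGS3* was the member more than 1.5-fold below Col in both mutants, and *AGO3* was so in *abo4*. *AGO1*, the slicer of microRNA targets, had the highest level of all 52 members, at 66.2 FPKM in Col, 64.1 in *mms19-1* and 73.8 in *abo4*, or 96.8% (94.4 to 99.3%) and 111% (109 to 114%). *AGO2* and *AGO3* are neighbouring copies on chromosome 1 (chr1:11181504-11185396 and chr1:11188120-11192585, both on the plus strand), of which AGO2 acts in antiviral defence. *AGO2* was at 7.49, 7.10 and 9.29 FPKM, or 94.8% (87.7 to 102%) and 124% (115 to 133%). *AGO3* was at 0.986, 0.961 and 0.536 FPKM from about 205, 183 and 99 reads, or 97.5% (79.4 to 119.6%) and 54.3% (42.4 to 69.6%). The neighbours thus went in opposite directions in *abo4* and stood at Col in *mms19-1*. *AGO5*, known from reproductive tissue, was at 0.0600, 0.111 and 0.108 FPKM from 11, 18 and 17 reads, or 186% (79.9 to 419%) and 181% (77.0 to 412%), a difference that was not detectable at this depth.

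*RDR6*, which copies cleaved transcripts into RNA duplexes with the help of SGS3, was at 13.2, 11.5 and 12.3 FPKM, or 86.6% (82.1 to 91.4%) and 93.1% (88.2 to 98.2%). The partners RDR6 and SGS3 thus differed in how far their transcripts lay from Col. *RDR1*, an RNA-dependent RNA polymerase of antiviral defence, was at 6.42, 6.77 and 8.12 FPKM, or 106% (97.8 to 114%) and 126% (118 to 136%). *DCL1*, the Dicer of microRNAs, was at 9.42, 8.18 and 7.25 FPKM, or 86.8% (82.4 to 91.5%) and 77.0% (72.8 to 81.3%). *DCL2* and *DCL4*, the Dicers of viral and trans-acting siRNAs, were at 8.70, 7.74 and 7.10 FPKM and at 6.35, 6.54 and 6.36 FPKM. *DCL2* shares 847 bases with another gene on the same strand, whose mean level was 11.0 FPKM. *DCL1* and *SUVH6* share 788 and 2487 bases with genes on the opposite strand that have no listed value. *SUVH6* also shares 1496 bases with an opposite-strand gene whose mean level was 2.90 FPKM. In all, 14 of the 52 members overlap another annotated gene, and 13 overlap one with a listed value.

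**Figure D4:**
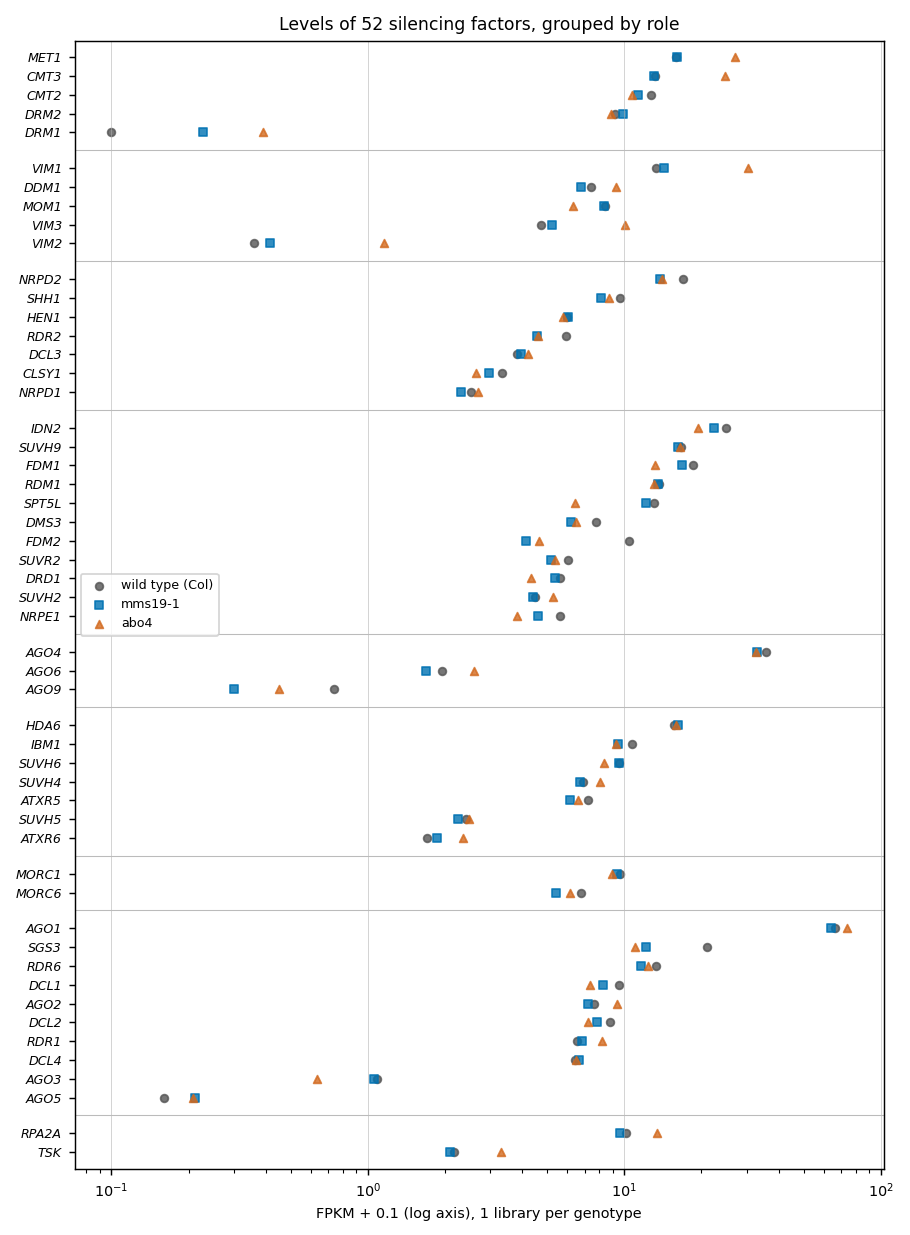
FPKM + 0.1 of the 52 members is plotted on a log axis for Col (circles), *mms19-1* (squares) and *abo4* (triangles), grouped by role and ordered by mean within each group, with 1 library per genotype. Most members lie between 2 and 30 FPKM in the 3 libraries, *AGO1* and *AGO4* are the highest, and *DRM1*, *VIM2*, *AGO9*, *AGO3* and *AGO5* have means under 1 FPKM.

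Set directly against each other, the mutants lay within 1.5-fold at 42 of the 52 members, beside 21983 of the 26416 loci above 0. Between *abo4* and *mms19-1*, 2 of 52 members were more than 2-fold higher in *abo4* (*VIM1* and *VIM2*), beside 3.60% of all loci, and 0 were more than 2-fold lower, beside 3.26%. At 1.5-fold, 8 were higher (*MET1*, *CMT3*, *DRM1*, the 3 VIM genes, *AGO6* and *TSK*, beside 9.36% of all loci) and 2 were lower (*SPT5L* and *AGO3*, beside 7.42%), and 22 of 52 were lower by any amount (45.1%). Leaving aside the 5 members with means under 1 FPKM, 1 was more than 2-fold higher (2.09% of such loci) and 0 more than 2-fold lower (2.31%), 6 and 1 at 1.5-fold (6.23% and 5.86%), and 20 were lower by any amount (48.1%). *VIM1* was at 214% of its *mms19-1* level in *abo4* (201 to 227%), *CMT3* at 189% (179 to 200.3%) and *MET1* at 169% (162 to 175%). *SPT5L* was at 52.2% (48.9 to 55.6%) and *AGO3* at 55.7% (43.3 to 71.7%). *FDM2* and *SGS3*, which were low in both mutants, were at 113% (99.2 to 129%) and 89.7% (83.7 to 96.3%) of their *mms19-1* levels. These ratios do not use the Col library.

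A second list of 55 other silencing factors, made of paralogs of the members and further subunits and partners, was read beside the set. In *mms19-1*, 0 of 55 passed 2-fold in either direction, and 2 were higher and 2 lower at 1.5-fold (5.28% and 4.49% of all loci). In *abo4*, 1 was more than 2-fold higher and 0 lower (3.87% and 2.58% of all loci), and 4 were higher and 3 lower at 1.5-fold (9.14% and 6.86%), shares no higher than those of all loci. Their median log2 ratios were -0.07 and -0.05. Of the 23 subunits and partners, such as the smaller subunits of RNA polymerases IV and V, the CAF-1 subunits and the microRNA factors HYL1 and SE, all were within 1.5-fold in both mutants, so the genes past the limit were paralogs. Of the 19771 loci with a mean of at least 1 FPKM, 18773 were within that limit in *mms19-1* and 17629 in *abo4*. *VIM6*, a further VIM paralog, was at 2.85, 3.12 and 5.15 FPKM, or 109% of Col in *mms19-1* (91.8 to 129.9%) and 181% in *abo4* (154 to 211%). *SUVR1*, a paralog of *SUVR2*, was at 2.66, 1.74 and 2.75 FPKM, or 65.4% (55.4 to 77.0%) and 103% (89.4 to 119.5%). *FDM4* and *FDM5*, given with the XS domain family, were the remaining ones past 1.5-fold with a mean of at least 1 FPKM.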

How the data were processed

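Poly(A) RNA of 3 seedling libraries was sequenced as 45-bp reads. The authors aligned the reads to TAIR10 and deposited linear FPKM values per gene in 1 table of 3 columns. The submitters' processing notes name TopHat2 2.0.12, Bowtie, Cufflinks 2.0.1 and Cuffdiff. The strand of the libraries and the handling of reads with several alignments are not given in the sources used here. Of 34133 entries, the one with the larger mean was kept for each of 33559 loci, which left out 574 entries and touched 0 members. Ratios were log2((FPKM + 0.1)/(FPKM of Col + 0.1)), with limits of 2-fold and 1.5-fold. With 1 library for each genotype no test was made.

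The reads behind each FPKM value were estimated with the effective length of the longest RefSeq transcript (fragments of mean 200 nt, SD 80 nt, at least 49 nt), with library sizes set so that values at short genes (60 to 150 nt) fell on whole reads. Within 0.05 of a whole number lay 95.9% of 98 such values in Col, 95.5% of 89 in *mms19-1* and 93.0% of 86 in *abo4*. The intervals are approximate, as the effective lengths are estimates. Python 3.11.15, numpy 2.4.6, pandas 2.3.3, scipy 1.17.1 and matplotlib 3.10.9 were used, and the calculation was tested on simulated data.

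The members and all gene lists were chosen with earlier results of these data known. Every member is given with its values. Intervals are given for members past 1.5-fold in either mutant, the highest and lowest of each role group and paralog pairs; those of further members were added after their values were seen. Of other lists, genes past 1.5-fold with a mean of at least 1 FPKM are named, apart from floral and seed genes, which are given as counts and sums. Some other genes were named after their values were seen. Alternatives were pseudocounts of 0.01 and 1 FPKM, a minimum mean of 1 FPKM, centred ratios and summed entries.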

Additional observations from a re-analysis of the deposited data

How the results depend on the processing

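Counts of members past a limit depended on the low genes. At a pseudocount of 1 FPKM, the 2-fold limit was passed upwards by 0 members in *mms19-1* and 1 in *abo4* and downwards by 1 in each, and the 1.5-fold limit upwards by 0 in *mms19-1* and downwards by 3 in *abo4*. Restricted to means of at least 1 FPKM, it was passed upwards at 2-fold by 0 members in *mms19-1* and 2 in *abo4*, downwards at 2-fold by 1 in *mms19-1*, upwards at 1.5-fold by 0 in *mms19-1* and downwards at 1.5-fold by 3 in *abo4*. A pseudocount of 0.01 FPKM gave 2 members above 1.5-fold in *mms19-1*. The other 38 recomputed counts and medians, with centring and summed entries among them, stayed within 1.5 times the reported count or within 0.1 of the reported median. For the 12 members past 1.5-fold in either mutant, 13 recomputed ratios left their counting interval (or, for *DRM1*, changed without one) and 99 did not, and 0 changed direction past the limit. *DRM1*, *VIM2*, *AGO9*, *AGO3* and *AGO5* have means under 1 FPKM. *DRM1* and *AGO5* rest on few reads, *VIM2* in Col and *AGO9* in *mms19-1* on about 30, and the ratio of *DRM1* is set largely by the pseudocount. The *abo4* log2 ratios of *VIM2*, *AGO9* and *AGO3* were 1.68, -0.72 and -0.77, but 0.71, -0.28 and -0.37 at a pseudocount of 1 FPKM. At 0.01 FPKM they were 1.98, -0.85 and -0.87, within their counting intervals. With 1 library for each genotype, leaving out a replicate gives no value. No paired analysis was possible because each genotype has a single library and the labels give no replicate numbers.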

Other observations

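The enzymes that remove DNA methylation were read beside the factors that set it. *ROS1*, the main DNA glycosylase of demethylation, was at 27.5 FPKM in Col, 58.6 in *mms19-1* and 21.7 in *abo4*, or 213% of Col (207 to 219%) and 78.7% (75.9 to 81.7%). It was the highest of the 6 genes of this list in *mms19-1* relative to Col, and *MET1* was at 101% there. *DML2*, a paralog, was at 6.46, 6.26 and 2.81 FPKM, or 96.8% (89.9 to 104%) and 43.5% (39.5 to 47.9%). *DML3* was at 2.14, 2.92 and 1.05 FPKM, or 136% (119.6 to 156%) and 49.2% (40.9 to 58.8%). In *abo4*, 6 of 6 genes of this list, which also holds *DME*, *IDM1* and *MBD7*, were below Col. Of loci with a mean of at least 1 FPKM, 52.0% were below Col there. The 6 genes had a median log2 ratio of -0.36, and the interval of *MBD7* held 100% (81.3 to 106%).

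Of 6 loci known for silencing by DNA methylation, 2 stood apart. *SDC*, an F-box gene silenced by RdDM and CMT3, was at 0.371, 0.746 and 2.03 FPKM from about 30, 54 and 143 reads, or 201% of Col in *mms19-1* (124 to 318%) and 547% in *abo4* (361 to 826%). It shares 1303 bases with a gene on the opposite strand whose mean level was 43.2 FPKM, and reads of the overlap are not told apart by strand as far as the sources used here say. *QQS*, a starch regulator with variable methylation in the wild, was at 5.79, 0.815 and 5.32 FPKM, or 14.1% (8.32 to 22.4%) and 92.0% (72.1 to 117%). *EVD* was listed at 0 in the 3 libraries, *FWA* was at 0.0397 FPKM in Col and listed at 0 in both mutants, and *MU1* was at 0.00903 FPKM in *abo4* and listed at 0 elsewhere. *BNS* was at 12.9, 10.5 and 11.1 FPKM. Among genes of the second list under 1 FPKM, *CLSY3*, a partner of RNA polymerase IV known from reproductive tissue, was at 0.450, 0.761 and 1.34 FPKM, or 169% (133 to 216%) and 298% (240.1 to 374%), and *CLSY4* was at 0.653, 0.658 and 1.34 FPKM. Seed storage genes were above Col in *mms19-1* (9 of 9, beside 12122 of 26416 loci above 0) and mostly below it in *abo4* (7 of 9, beside 47.6%, *CRB* listed at 0). They summed to 18.4 FPKM in Col, 40.4 in *mms19-1* and 11.3 in *abo4*, and the part of seed or floral tissue in these values was not tested.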
